A study of Mus musculus with 13 samples.

Results

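The H3K27me3 peaks of neural stem cells (NSCs) were compared with those of oligodendrocyte progenitor cells (OPCs) in mouse. Every peak listed for the 2 libraries was a member, 36069 in NSCs and 29417 in OPCs, which made 65486 of the 175781 ChIP-Seq peaks of the series. The series profiled H3K4me3 and H3K27me3 in NSCs, OPCs and newly formed oligodendrocytes (NFOs), and OLIG2 binding in the oligodendrocyte lineage. NSCs came from the cortex of E14.5 embryos and were grown as purchased cultures in medium with EGF and FGF. The strain is given as CD-1 in the protocol and as C57BL/6 in the sample labels. OPCs were taken on postnatal day 7 from C57BL/6 brain and purified without culture, by immunopanning on an antibody to PDGFRα after removal of microglia and endothelial cells on lectin plates. No group carried a transgene, a deletion or a treatment. NFOs, purified from the same age with an antibody to GalC, served as a library that the comparison itself did not use.

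Each cell type had 1 library of each mark, so no value carries an error between cultures or animals, no test was run and no p-value is given. Stage, strain, age, culture and read layout all differed between the NSC and the OPC library, and their parts cannot be told apart. By the names of the peaks, the NSC reads were single-end and those of OPCs and NFOs paired-end. How many reads support a peak is unknown. Ranges in brackets after a share are its exact Clopper-Pearson 95% interval, which covers counting error alone. The antibody fields of the labels name the other histone mark than the titles do, and the titles were followed. The lists themselves bore on this. H3K27me3 peaks lay within 2 kb of the transcription start site (TSS) of 39 of 39 Hox genes in both stages, and near 0 of 15 housekeeping genes in NSCs and 1 of 15 in OPCs.

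H3K27me3 is the trimethylation of lysine 27 of histone H3. It is laid down by Polycomb repressive complex 2, whose catalytic subunits are EZH2 and EZH1, and it marks the promoters of silenced developmental genes, often as domains far wider than a single promoter. In the neural lineage the mark is known for holding genes of other lineages and other brain regions silent while a cell takes its fate, and CpG-rich promoters are its usual sites.

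Promoters of genes at which the lists differed widely, and promoters inside the widest NSC peak, are shown as examples of the sequence that carried the mark. They come from the protein-coding genes ranked by the difference or by peak width further on, leaving out genes whose RefSeq start lay over 100 bp from the annotated TSS or whose stretch overlapped an exon, so some lost genes with a larger difference are not shown. The 250 bases upstream of the RefSeq TSS (build GRCm38.p6) are given 5′ to 3′ on the strand of the gene, with each CG dinucleotide in capitals. Calr4 (chr4:109234235-109234484, plus strand), Pax6 (chr2:105668646-105668895, plus strand) and Efhd2 (chr4:141874921-141875170, minus strand) stood inside OPC peaks and outside every NSC peak.
Calr4: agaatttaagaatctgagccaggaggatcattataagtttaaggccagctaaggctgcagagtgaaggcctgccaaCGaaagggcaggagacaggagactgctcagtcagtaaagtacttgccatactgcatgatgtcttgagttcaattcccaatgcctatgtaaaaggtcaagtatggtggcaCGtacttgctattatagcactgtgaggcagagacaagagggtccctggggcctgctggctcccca
Pax6: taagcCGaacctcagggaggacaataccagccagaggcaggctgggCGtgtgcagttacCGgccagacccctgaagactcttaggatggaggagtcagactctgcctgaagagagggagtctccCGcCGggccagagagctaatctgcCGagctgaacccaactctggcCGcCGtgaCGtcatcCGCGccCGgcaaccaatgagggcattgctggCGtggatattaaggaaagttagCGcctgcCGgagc
Efhd2: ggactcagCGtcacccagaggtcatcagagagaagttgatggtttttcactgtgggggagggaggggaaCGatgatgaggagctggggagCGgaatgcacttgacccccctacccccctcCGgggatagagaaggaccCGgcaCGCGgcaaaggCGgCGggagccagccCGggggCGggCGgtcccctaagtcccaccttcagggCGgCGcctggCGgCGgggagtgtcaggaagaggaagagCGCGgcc
Shisa7 (chr7:4844697-4844946, minus strand) and Ocln (chr13:100552719-100552968, minus strand) are genes at which NSCs had the wider mark.
Shisa7: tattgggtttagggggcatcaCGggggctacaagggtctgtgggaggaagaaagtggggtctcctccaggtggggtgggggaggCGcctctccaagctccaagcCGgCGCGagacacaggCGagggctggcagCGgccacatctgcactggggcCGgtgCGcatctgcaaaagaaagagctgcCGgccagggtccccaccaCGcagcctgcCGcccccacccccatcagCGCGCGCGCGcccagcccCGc
Ocln: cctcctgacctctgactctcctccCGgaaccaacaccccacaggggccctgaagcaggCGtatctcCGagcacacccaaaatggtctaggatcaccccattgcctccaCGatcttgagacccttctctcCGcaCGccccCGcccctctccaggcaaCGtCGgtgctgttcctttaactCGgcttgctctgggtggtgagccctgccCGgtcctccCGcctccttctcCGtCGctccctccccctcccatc
Hoxa10 (chr6:52240855-52241104, minus strand) and Hoxa5 (chr6:52204588-52204837, minus strand) were inside peaks in both stages.
Hoxa10: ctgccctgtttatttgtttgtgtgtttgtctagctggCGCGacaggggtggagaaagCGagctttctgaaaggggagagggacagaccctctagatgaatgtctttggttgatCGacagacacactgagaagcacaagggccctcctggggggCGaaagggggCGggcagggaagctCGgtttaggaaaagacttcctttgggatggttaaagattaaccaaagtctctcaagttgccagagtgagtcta
Hoxa5: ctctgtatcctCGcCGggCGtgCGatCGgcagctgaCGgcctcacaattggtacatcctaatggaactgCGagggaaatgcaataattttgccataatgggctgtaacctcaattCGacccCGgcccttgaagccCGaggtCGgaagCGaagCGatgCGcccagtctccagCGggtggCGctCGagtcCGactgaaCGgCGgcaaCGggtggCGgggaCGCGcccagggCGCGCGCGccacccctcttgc
These stretches held 2 CG in Calr4, 15 in Pax6, 18 in Efhd2, 18 in Shisa7, 14 in Ocln, 7 in Hoxa10 and 28 in Hoxa5. The median over 32851 RefSeq promoter entries was 6, and 92.1% of them held at least 1. Calr4 was thus the CG-poor example of the set. Of the Hoxa examples, Hoxa5 was CG-rich and Hoxa10 near the median, and Hoxa2, which is not shown, held 6.

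The NSC and OPC lists overlapped in a minority of peaks and in nearly all of the broadest ones. Of the NSC peaks, 7525 (20.9%, 20.4 to 21.3) shared at least 1 bp with an OPC peak, and of the OPC peaks 8163 (27.7%, 27.2 to 28.3) shared at least 1 bp with an NSC peak. NSC peaks covered 25.8 Mb and OPC peaks 21.9 Mb, and 6.62 Mb was common, which was 25.7% of the NSC bases and 30.2% of the OPC bases. The shared part of H3K27me3 was smaller than that of H3K4me3 in the same cells, for which 44.3% of the NSC peaks and 82.5% of the OPC peaks were shared.

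Width set the shared peaks apart from the others. The median width of shared peaks was 560 bp in NSCs and 527 bp in OPCs, against 325 bp for the 28544 peaks listed in NSCs alone and 283 bp for the 21254 listed in OPCs alone. Among NSC peaks under 300 bp, 10.6% (10.0 to 11.1) were shared. The share was 64.6% (61.1 to 68.0) from 2000 to under 5000 bp, 97.0% (93.2 to 99.0) from 5000 to under 10000 bp, and all 145 NSC peaks of at least 10000 bp were shared. The share of OPC peaks rose with each width class and had a flatter course. It went from 22.5% (21.8 to 23.2) under 300 bp to 48.0% (45.3 to 50.8) from 2000 to under 5000 bp. From 5000 to under 10000 bp it was 72.4% (67.4 to 77.0), and at or above 10000 bp 139 of 147 (94.6%, 89.6 to 97.6). Broad peaks without a counterpart were therefore rare in NSCs and more common in OPCs. At least 5000 bp wide were 5 peaks listed in NSCs alone and 104 listed in OPCs alone. The narrow ends of the lists were not alike, since the narrowest NSC peak spanned 274 bp and the narrowest OPC peak 171 bp, and the part of read layout in this was not tested.

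**Figure D1:**
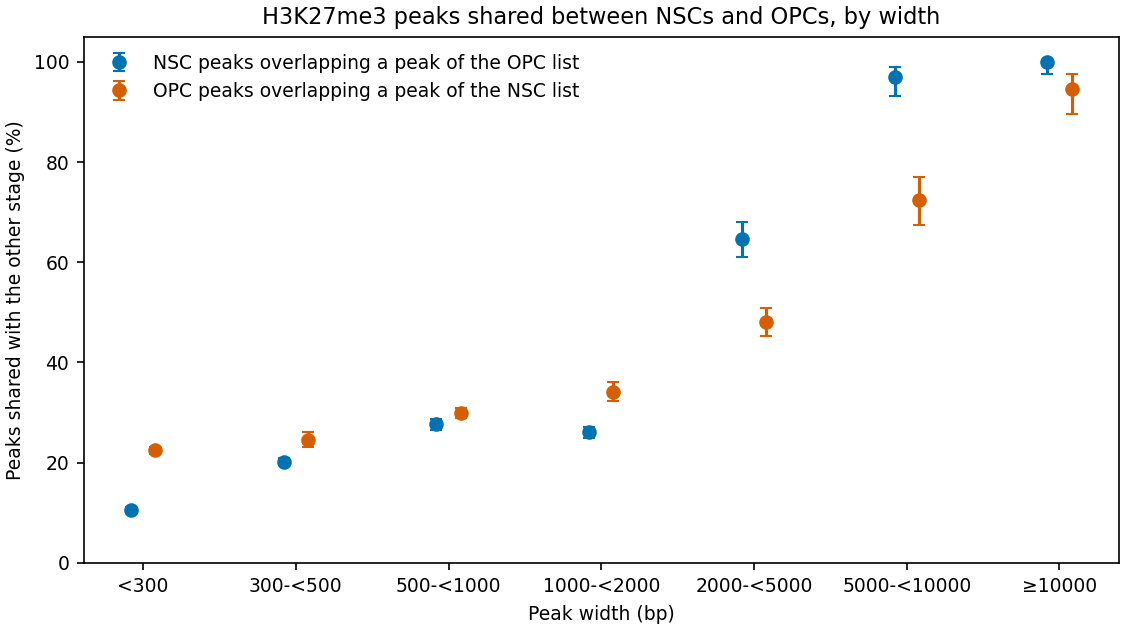
Share of H3K27me3 peaks of each stage that overlapped a peak of the other stage by at least 1 bp (vertical axis, %), by peak width in bp (horizontal axis); blue points are NSC peaks, orange points OPC peaks, and bars are exact binomial 95% intervals. The share is 10.6% of NSC and 22.5% of OPC peaks under 300 bp, and 100% and 94.6% at or above 10000 bp. The NSC share does not rise between 500 to under 1000 bp (27.6%) and 1000 to under 2000 bp (26.1%).

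Peaks listed in OPCs alone were found again in NFOs more often than peaks listed in NSCs alone were. An NFO H3K27me3 peak overlapped 4629 of the 21254 peaks of OPCs alone (21.8%, 21.2 to 22.3) and 168 of the 28544 peaks of NSCs alone (0.589%, 0.503 to 0.684). Shared peaks were overlapped in like shares, 33.0% (31.9 to 34.1) of those in NSCs and 34.7% (33.7 to 35.8) of those in OPCs. For peaks of at least 1 kb the contrast was wider, with 71.6% (69.8 to 73.3) of the 2495 peaks of OPCs alone and 0.995% (0.732 to 1.32) of the 4725 of NSCs alone overlapped in NFOs. OPCs and NFOs also share strain, age and read layout, and the part of these in the difference was not tested.

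The sequence under the peaks differed between the classes as well. Peaks of NSCs alone had a median GC content of 39.1%, below the 41.7% of the genome, and 43.3% of their bases were soft-masked as repeats, above the 36.4% of the genome. Peaks of OPCs alone had a median GC content of 44.1% and 26.5% soft-masked bases, close to the 43.8% and 24.1% of the shared OPC peaks. CpG dinucleotides were rare in most peaks of either stage, with a median ratio of observed to expected CpG of 0.17 in all NSC peaks and 0.20 in all OPC peaks beside 0.19 in the genome. The ratio reached 0.44 in NSC peaks and 0.39 in OPC peaks of at least 10000 bp. TSSs followed the same classes. A TSS lay within 2 kb of 5.81% (5.54 to 6.09) of the peaks of NSCs alone and 13.4% (12.9 to 13.9) of those of OPCs alone. It lay within 2 kb of 1430 of the 7525 shared NSC peaks (18.1% to 19.9%) and 1655 of the 8163 shared OPC peaks (19.4% to 21.2%). OLIG2 peaks of OPCs overlapped 2.74% of the peaks of NSCs alone and 2.02% of those of OPCs alone. They overlapped 4.36% of shared NSC peaks and 4.05% of shared OPC peaks. No share for other regions of like width was computed, so these values show neither avoidance nor preference.

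When peaks of a list within 3 kb of each other were joined into domains, the widest domains of both stages were the 4 Hox clusters, which hold the transcription factors of the body axis. The Hoxc domain spanned 149 kb in NSCs and 174 kb in OPCs, and the Hoxa domain 144 kb and 133 kb. Peaks covered 97.2% of the Hoxa cluster (chr6:52155590-52260880) in NSCs, 95.5% in OPCs and 93.3% in NFOs. Over Hoxb (chr11:96271457-96368256) these values were 91.4%, 93.8% and 87.8%. Hoxc (chr15:102921103-103036852) had 96.2%, 94.8% and 89.5%, and Hoxd (chr2:74668310-74765142) had 94.3%, 92.3% and 82.9%. Coverage of the clusters was thus nearly complete in each stage, but the number of listed pieces was not the same. Hoxa was 2 peaks in NSCs, the wider of 117916 bp, and 4 in OPCs, the widest of 44854 bp. Hoxd was 4 peaks in NSCs and 9 in OPCs.

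With peaks joined, OPCs had more broad domains than NSCs, and many of them had little or no NSC mark. Domains of at least 10 kb, Hox clusters included, numbered 218 in NSCs and 592 in OPCs. Listed peaks of at least 10 kb, before joining, numbered 145 and 147. Joined domains also include the gaps between their peaks. NSC peaks covered under 10% of the length of 290 of the 592 OPC domains (49.0%, 44.9 to 53.1), whereas OPC peaks covered under 10% of 9 of the 218 NSC domains (4.13%, 1.90 to 7.69). The 290 OPC domains had a median of 42.8% of their length covered in NFOs and 187 of them held no annotated TSS. The 9 NSC domains had a median of 5.23% covered in NFOs and 2 of them held a protein-coding TSS, those of Calcr, the calcitonin receptor, and Cdk6, a cyclin-dependent kinase of the G1 phase.

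Of the 290 OPC domains with little NSC mark, 76 held a protein-coding TSS, and the examples given here were chosen after their values were seen. One was at Zic1 and Zic4, zinc-finger factors of the dorsal neural tube (chr9:91347455-91424542, 77.1 kb), with 7.29% of its length covered in NSCs and 82.5% in NFOs. Zic2 and Zic5, their relatives on another chromosome, lay in a domain of 31.6 kb (chr14:122461648-122493291) with 1.11% covered in NSCs and 68.6% in NFOs. The domain at Lhx2, a LIM-homeobox factor of the developing cortex, spanned 29.0 kb (chr2:38331344-38360327) with 1.19% covered in NSCs and 38.6% in NFOs. Gbx2, a homeobox factor of the midbrain-hindbrain boundary, lay in a domain of 29.8 kb (chr1:89920384-89950146) with 5.49% covered in NSCs. The gene of the NMDA receptor subunit GRIN2B lay in one of 29.4 kb (chr6:136148911-136178349) with 0% covered in NSCs and 78.0% in NFOs. Domains with most of their length marked in both stages included those of Hand2, Pax3 and Gata4, factors of heart, neural crest and endoderm, whose NSC domains were 76.8%, 87.8% and 91.9% covered by OPC peaks.

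Marks at promoters were compared by the number of bases inside listed peaks in a window of 4001 bp, 2 kb either side of the TSS of each of 35312 protein-coding and long non-coding RNA genes. Any covered base was found at 3439 genes in NSCs (9.74%) and 4219 in OPCs (11.9%). Of these, 1710 were the same genes, 49.7% of the NSC set and 40.5% of the OPC set. Such counts include OPC peaks down to 171 bp, narrower than the narrowest NSC peak of 274 bp. A gene was called gained in OPCs where OPCs had at least 2000 bp more covered than NSCs, and lost where NSCs had at least 2000 bp more. By this rule 216 genes were gained (0.612% of all genes) and 55 were lost (0.156%). These shares are the background for the gene lists given further on. Of the gained genes 137 were protein-coding and 79 lncRNAs, and of the lost genes 39 and 16. The 216 gained genes lay at 191 separate places and the 55 lost genes at 50, because neighbors share windows. The covered bases chose these genes and are given only as a description. The gained gene nearest the threshold differed by 2002 bp and the nearest one outside by 1997 bp, and for lost genes these values were 2006 and 1973 bp. Within 250 bp of the gained threshold, on either side, lay 136 genes, and within 250 bp of the lost threshold 54.

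Gained genes mostly went from no mark to a window largely covered. The median was 0 bp in NSCs and 2855 bp in OPCs, and 142 of the 216 had no covered base in NSCs. In NFOs, which the rule did not use, the median was 2013 bp and 209 genes were marked (96.8%, 93.4 to 98.7), beside 7.03% of all genes. Of the 506 genes with at least 2 kb covered in OPCs that were not gained, 503 were marked in NFOs (99.4%, 98.3 to 99.9), so the share at gained genes was near that of other broadly marked genes. Lost genes mostly kept part of the mark. Their median was 3233 bp in NSCs and 390 bp in OPCs, and 34 of the 55 still had some covered bases in OPCs. In NFOs 30 of the 55 were marked (54.5%, 40.6 to 68.0), made up of 27 of those 34 and 3 of the 21 with none in OPCs. Of the 484 genes with at least 2 kb covered in NSCs that were not lost, 472 were marked in NFOs (97.5%, 95.7 to 98.7). The share at lost genes was thus below that of other broadly marked NSC genes.

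The position of the mark within the window differed as well. At the 415 genes with at least 2 kb covered in both stages, the TSS itself was inside a peak at 94.0% of genes in NSCs, 80.7% in OPCs and 68.0% in NFOs. At 300 bp downstream they were 93.3%, 77.1% and 65.8%, the lowest point of the OPC and NFO lists around the start site. At 3 kb upstream the values were 71.3%, 70.4% and 65.1%, so the lists differed more around the start site than there. At the lost genes the TSS was inside a peak at 98.2% in NSCs and 9.09% in OPCs. The rule chose these genes by coverage in this window, so it favors that contrast. The NFO value, which the rule did not use, was 3.64%. At 2.5 kb upstream of lost genes, just outside the window, 38.2% were covered in NSCs and 21.8% in OPCs, and at 3 kb upstream 27.3% and 25.5%, with 16.4% in NFOs. At gained genes the mark of OPCs reached beyond the window, with 41.7% of genes covered at 3 kb upstream against 8.80% in NSCs. The OPC and NFO libraries share their read layout, and its part in the dip around the TSS was not tested.

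**Figure D2:**
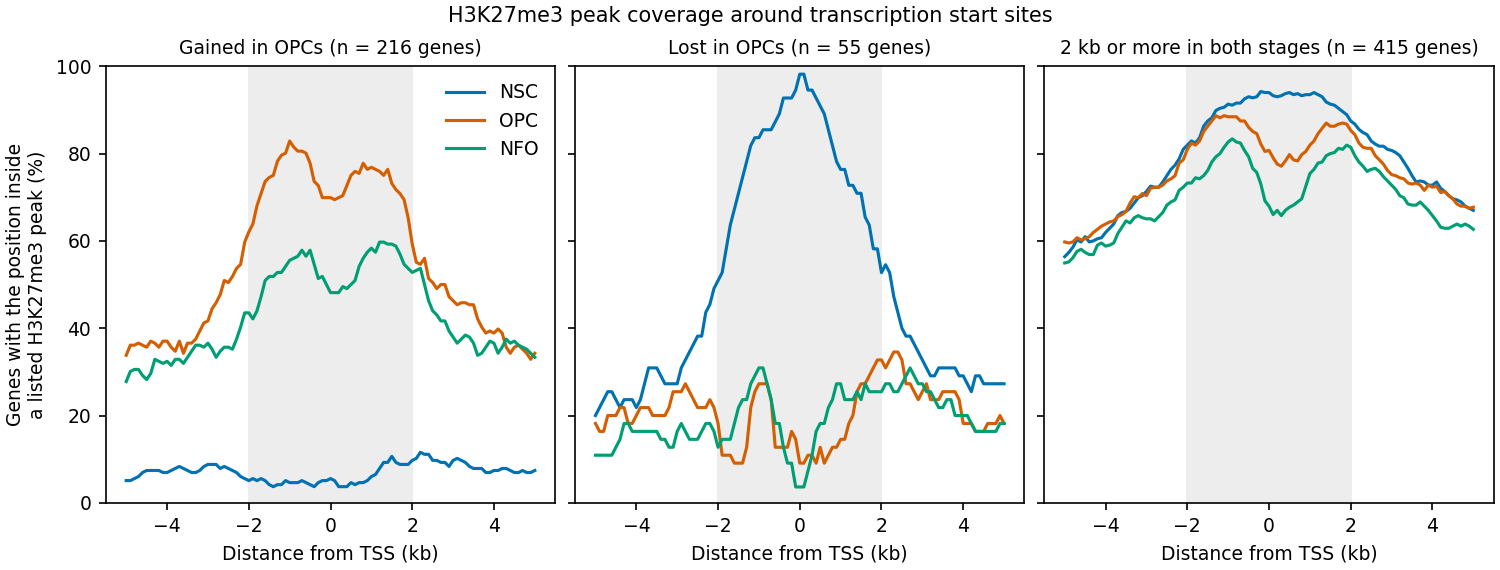
Share of genes whose base at a given distance from the TSS was inside a listed H3K27me3 peak (vertical axis, %), by distance in kb along the direction of transcription (horizontal axis), for gained genes, lost genes and genes with at least 2 kb covered in both stages; lines are NSCs (blue), OPCs (orange) and NFOs (green), and the shaded band is the window that chose the genes. OPC and NFO lines dip around the TSS, to 77.1% and 65.8% at 300 bp downstream in the right panel, where the NSC line is at 93.3%.

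The protein-coding genes with the largest gain were led by genes with nothing listed in NSCs and the whole window covered in OPCs. At Pax6, the paired-homeobox factor of cortical radial glia and eye, the window around the TSS at chr2:105668900 was free of the mark in NSCs (0 bp), covered in full in OPCs (4001 bp) and had 3632 bp in NFOs. The OPC peak there spanned 11691 bp with a fold enrichment of 4.61, and OPC peaks covered 41.4% of the gene body where NSC peaks covered 0%. No H3K4me3 peak was listed in this Pax6 window in NSCs, OPCs or NFOs, and use of this TSS was not tested. Pax6os1 and Paupar, antisense and neighboring lncRNAs of the Pax6 locus, were also among the gained genes. Calr4, a calreticulin family chaperone, had 0, 4001 and 3231 bp in the order NSCs, OPCs and NFOs, inside an OPC peak of 11989 bp. Efhd2, a calcium-binding adaptor, had 0, 4001 and 1124 bp. Lipg, endothelial lipase, had 0, 4001 and 4001 bp. Pitx3, a homeobox factor of midbrain dopamine neurons and lens, had 0, 4001 and 1452 bp, and Tcea3, a transcription elongation factor, had 0, 4001 and 1219 bp.

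The other 6 of the 12 had a narrow NSC mark or a slightly smaller OPC mark. Barx2, a homeobox factor, had 77, 4001 and 4001 bp in that order. Prdm1, the transcriptional repressor BLIMP1, had 276, 4001 and 4001 bp. Bmp4, a ligand that favors astrocytes over oligodendrocytes in neural progenitors, had 286, 3932 and 1132 bp. Gm10837, a predicted gene beside Zic2, had 350, 4001 and 2933 bp, Grrp1 had 75, 3997 and 976 bp, and Cmtm7 had 0, 3883 and 945 bp. All 12 kept the call with peaks past the filter in the study's methods, and 6 of them (Pax6, Efhd2, Pitx3, Barx2, Grrp1 and Bmp4) did not at a fold enrichment above 5.

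The lost genes with the largest difference included neuronal genes and homeobox factors, and most kept part of the mark. Syt2, a synaptotagmin of synaptic vesicles, had 3583 bp in the NSC list, 204 bp in that of OPCs and 1069 bp in that of NFOs. Ralyl, an RNA-binding protein gene, had 3825, 783 and 0 bp. Onecut3, a homeobox factor of early neurons, had 4001, 995 and 736 bp, and Irx1, an Iroquois factor, had 4001, 996 and 1105 bp. Of the 12, 3 lost genes had nothing listed in OPCs or NFOs: Atg14, an autophagy gene, went from 3233 bp in NSCs, Shisa7, an auxiliary receptor subunit of synapses, from 2747 bp and Fgf12, an intracellular FGF homolog of neurons, from 2658 bp. Ecel1 had 4001, 1269 and 354 bp, Calcr 3518, 795 and 2811 bp, Ocln, the tight-junction protein occludin, 4001, 1364 and 2261 bp. Prrxl1, a homeobox factor of sensory neurons, had 4001, 1407 and 1122 bp, and Pou4f3, a POU factor of hair cells, 4001, 1436 and 2079 bp. Joining peaks within 3 kb ended the call for Ralyl, Onecut3, Ecel1, Ocln, Prrxl1 and Pou4f3. The filter of the study's methods ended it for Syt2 and Atg14. At a fold enrichment above 5 it held for Ralyl, Onecut3 and Fgf12, and ended for the other 9 of the 12.

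**Figure D3:**
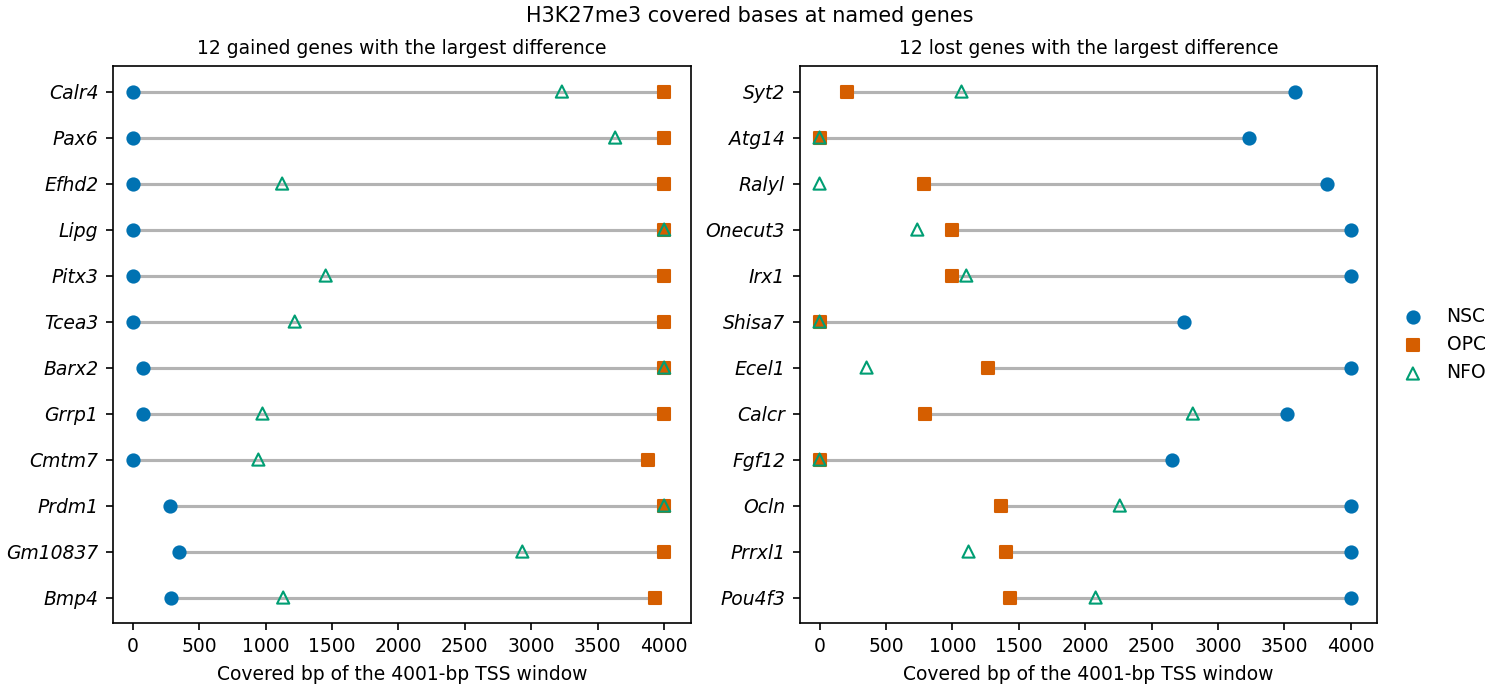
Covered bases of the 4001-bp TSS window (horizontal axis, bp) for the 12 protein-coding genes with the largest gain (left) and loss (right) in OPCs; filled blue circles are NSCs, filled orange squares OPCs, open green triangles NFOs, 1 library each, and a grey line joins NSCs and OPCs. Gained genes start between 0 and 350 bp in NSCs, while 9 of the 12 lost genes keep between 204 and 1436 bp in OPCs.

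Genes with the whole window covered in both stages numbered 142, of which 85 were protein-coding. The 8 with the widest NSC peaks were all Hoxa genes (Hoxa2, Hoxa3, Hoxa4, Hoxa5, Hoxa6, Hoxa9, Hoxa10 and Hoxa11), which lay in the single NSC peak of 117916 bp. In OPCs the same genes lay in peaks of 16204 to 44854 bp. Hoxa13, at the end of the cluster, was the one Hox gene called lost, with 4001 bp in the NSC list, 1980 bp in that of OPCs and 2704 bp in that of NFOs, and that call ended when peaks within 3 kb were joined. Of the 39 Hox genes, 25 had the whole window covered in both stages.

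H3K4me3, the mark of active and poised promoters, was read in the same windows and was not used to choose the genes. At the 137 protein-coding gained genes the median H3K4me3 coverage was 1451 bp in NSCs and 337 bp in OPCs, and 85 of them (62.0%, 53.4 to 70.2) had at least 500 bp less in OPCs. Among all 21938 protein-coding genes the medians were 1236 and 633 bp, and 38.3% had at least 500 bp less. With lncRNAs included, at least 500 bp less was found at 51.4% of the gained genes (44.5 to 58.2) and at 45.1% (40.7 to 49.5) of the 506 genes with at least 2 kb in OPCs that were not gained, and these intervals overlapped. At the 39 protein-coding lost genes the medians were 1560 and 1088 bp, and 20 (51.3%, 34.8 to 67.6) had at least 500 bp less. At least 500 bp more H3K4me3 in OPCs was found at 6 of those 39 (15.4%, 5.86 to 30.5), against 3 of 137 gained (2.19%, 0.454 to 6.27) and 1.70% of all protein-coding genes. Ralyl had 1064 bp of H3K4me3 in NSCs and 2350 bp in OPCs, Shisa7 942 and 1984 bp, and Pou4f3 452 and 2113 bp. CpG-rich start sites, with at least 50% GC and a CpG ratio of at least 0.6 within 500 bp of the TSS, made up 61.3% (52.6 to 69.5) of the protein-coding gained genes, 64.1% (47.2 to 78.8) of the lost ones and 44.4% of all. With lncRNAs included they made up 49.5% (42.7 to 56.4) of the gained genes and 56.9% (52.5 to 61.3) of those 506 genes. OLIG2 peaks of OPCs lay in the windows of 8 of 216 gained genes (3.70%, 1.61 to 7.17), 6 of 55 lost genes (10.9%, 4.11 to 22.2) and 3.40% of all genes.

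Genes of the neural stem cell state were marked more often in OPCs. Of 26 such genes, 5 had a covered base in NSCs and 16 in OPCs, beside 9.74% and 11.9% of all genes. More bases were covered in OPCs at 14, fewer at 1, and 11 were equal. At least 2 kb was covered at 2 in NSCs and 5 in OPCs. Some of the 16 had little, as Vim with 175 bp and Nr2e1 with 34 bp, while the narrowest NSC peak spanned 274 bp. Gained were Pax6, Lhx2 (0, 2732 and 1669 bp in the same order of stages) and the lncRNA Crnde (0, 2942 and 1043 bp), which shares its start region with Irx5. Emx2, a homeobox factor of the dorsal forebrain, had 0, 1380 and 1535 bp, Ccnd2, a G1 cyclin of progenitors, 0, 1286 and 1255 bp, and Sox1, a neural progenitor factor, 279, 1566 and 1555 bp. The exception was Lin28b, a regulator of let-7 microRNAs, with 4001, 2155 and 2288 bp. Nes, Sox2, Hes1, Hes5, Notch1 and Egfr had no listed peak in any stage. Zic1, Zic2, Zic4 and Zic5, named after their values were seen, had more in OPCs, from 201 to 3135 bp at Zic1, 0 to 2321 bp at Zic2, 316 to 3423 bp at Zic4 and 0 to 1915 bp at Zic5, the last below the threshold.

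Oligodendrocyte genes carried little of the mark in either stage. The counts were slightly higher in NSCs but rest on few genes. Several of these had a narrow peak, such as Zfp488, Zfp536 and Sox10, while the narrowest NSC peak spanned 274 bp. Among all genes 9.74% were marked in NSCs and 11.9% in OPCs. Among 20 regulators of the lineage, 4 were marked in NSCs and 2 in OPCs, with 0 gained and 0 lost. Sox10, the factor that drives the lineage, had 411 bp in NSCs and 0 bp in OPCs and NFOs. Zfp488, a zinc-finger co-regulator of OLIG2, had 298, 0 and 0 bp, and Zfp536 had 327, 0 and 0 bp. H3K4me3 at Sox10 covered 201 bp in NSCs and 1319 bp in OPCs. Olig2, Nkx2-2, Yy1 and Gpr17 had 0 bp of H3K27me3 in all 3 stages. The exceptions were Nkx6-2, with 2548, 2211 and 2916 bp, and Prdm8, with 0, 1411 and 2261 bp. Of 20 OPC identity genes 3 were marked in NSCs (Vcan, Pcdh15 and C1ql1) and 1 in OPCs (Matn4, 182 bp), and of 20 myelin genes 3 and 2, with 0 gained and 0 lost in both lists. Ugt8a, an enzyme of myelin lipid synthesis, had 1145 bp in NSCs and 0 bp in OPCs and NFOs.

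Patterning and fate genes of other lineages were widely marked in both stages, and a minority of them were gained or lost. Of 62 homeobox genes outside the Hox clusters, 47 were marked in NSCs and 55 in OPCs, and 7 were gained (11.3%) and 1 lost (1.61%). Gained were Otx2, Lhx2, Irx2, Irx3, Irx5, Pitx3 and Phox2a, and Irx1 was lost. Otx2, a forebrain and midbrain factor, had 1054 bp in the NSC list, 4001 bp in that of OPCs and 1950 bp in that of NFOs. The Iroquois genes were thus split, since Irx3 had 338, 2968 and 2276 bp and Irx5 308, 2942 and 1164 bp while Irx1 had less in OPCs. The calls for Irx2 and Irx3 ended under the filter of the study's methods. Of 9 Pax genes, 7 were marked in NSCs and 9 in OPCs, and Pax6, Pax7 (951, 4001 and 2983 bp) and Pax9 (1224, 4001 and 4001 bp) were gained, the calls for Pax7 and Pax9 ending with peaks joined. Of 12 Dlx and interneuron genes, 9 and 11 were marked, with Dlx2 gained (911, 3129 and 4001 bp) and Npy lost (4001, 1883 and 2677 bp). The call for Dlx2 and that for Phox2a ended with peaks of at least 1 kb, and the call for Npy with peaks joined.

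Neuronal fate genes differed in both directions. Of 30 proneural and neuronal fate genes, 19 were marked in NSCs and 21 in OPCs. Gained were Neurod6 (0, 3341 and 2290 bp), Tbr1 (289, 2329 and 2870 bp) and Ebf1 (0, 2303 and 1703 bp). Neurod6 and Tbr1 act in projection neurons of the cortex, and the call for Ebf1 ended with peaks of at least 1 kb. Lost were Neurog2 (4001, 1879 and 1806 bp), Pou4f1 (4001, 1653 and 1647 bp) and Pou4f3, and none of these calls held with peaks joined. Of 12 neuron genes, 5 and 8 were marked, and Grin2b (0, 3040 and 1718 bp) and Slc17a6, a vesicular glutamate transporter (812, 4001 and 4001 bp), were gained.

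Among 44 mesoderm and endoderm transcription factors, 30 were marked in NSCs and 37 in OPCs, and 6 were gained and 0 lost. These were T, the mesoderm factor Brachyury (0, 3104 and 4001 bp), Tbx3 (1767, 4001 and 4001 bp), Tbx4 (0, 2326 and 3316 bp), Tbx5 (0, 3312 and 2813 bp), Foxc1 (0, 2703 and 2209 bp) and Sox7 (486, 3235 and 4001 bp). The call for Tbx4 ended under the filter of the study's methods and with peaks of at least 1 kb. Of 38 Wnt and BMP ligands and antagonists, 15 and 25 were marked, 19 had more covered bases in OPCs and 6 fewer, and Bmp4 and Dkk1, a Wnt inhibitor (1565, 3582 and 3336 bp), were gained. Wnt3 had 0, 1416 and 2168 bp and Wnt8b 683, 2479 and 1977 bp, both below the threshold. Endothelial genes were marked at 1 and 6 of 10, with Kdr, the VEGF receptor, at 0, 1657 and 914 bp, and astrocyte genes at 1 and 4 of 16, with 0 gained and 0 lost in both lists.

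In the remaining lists no gene was gained or lost. Microglia genes were marked at 0 of 12 in both stages. Polycomb and trithorax genes were marked at 1 and 5 of 28, with Cbx2, a Polycomb subunit that reads the mark, at 287, 1744 and 1486 bp, and Cbx8 at 0, 1162 and 483 bp. Of 7 CDK inhibitor genes 2 and 3 were marked. Cdkn2a, the senescence locus of p16 and ARF, had 1605, 404 and 1235 bp and its neighbor Cdkn2b 0, 1900 and 1792 bp. The widest peak touching the Cdkn2a window spanned 7579 bp in NSCs and 23311 bp in OPCs. The lower OPC value at Cdkn2a thus holds for this window alone. Of 27 imprinted genes 6 and 11 were marked, and 1 of 15 housekeeping genes was marked in OPCs, Ywhaz with 181 bp.

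**Figure D4:**
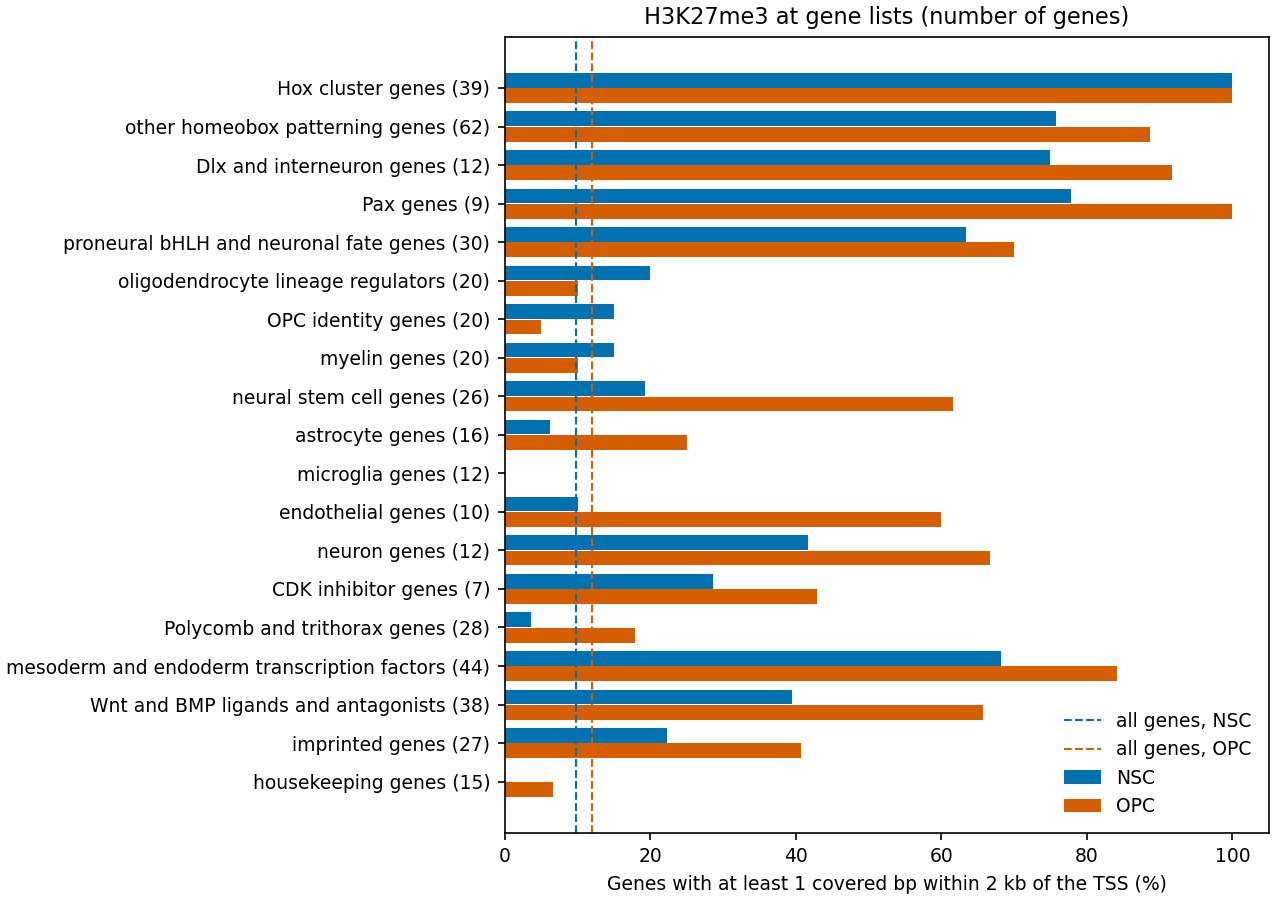
Share of genes with at least 1 covered bp of H3K27me3 within 2 kb of the TSS (horizontal axis, %) in 19 gene lists, with the number of genes in brackets; blue bars are NSCs, orange bars OPCs, 1 library each, and dashed lines give the share over all 35312 genes, 9.74% in NSCs and 11.9% in OPCs. Hox genes are at 100% in both, and the neural stem cell list goes from 5 to 16 of 26.

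The X chromosome had the largest difference in coverage between the stages. NSC peaks covered 11.5 kb per Mb of X, beside 7.28 to 13.6 kb per Mb over the 19 autosomes with a median of 9.47. OPC peaks covered 4.17 kb per Mb of X, below every autosome (4.87 to 12.2, median 8.44), and NFO peaks 1.92 kb per Mb, again below every autosome (2.82 to 7.97). X held 3617 NSC peaks and 1611 OPC peaks. Of the NSC peaks on X 2992 were listed in NSCs alone. X held 1131 of the 35312 genes, 2 of the 216 gained and 4 of the 55 lost genes, and all 4 were among the 21 lost genes with no covered base in OPCs. By the study's methods both sexes of mice were used in about equal parts, and no sex is stated separately for the purchased cultures of embryonic NSCs. The part of sex was not tested.

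**Figure D5:**
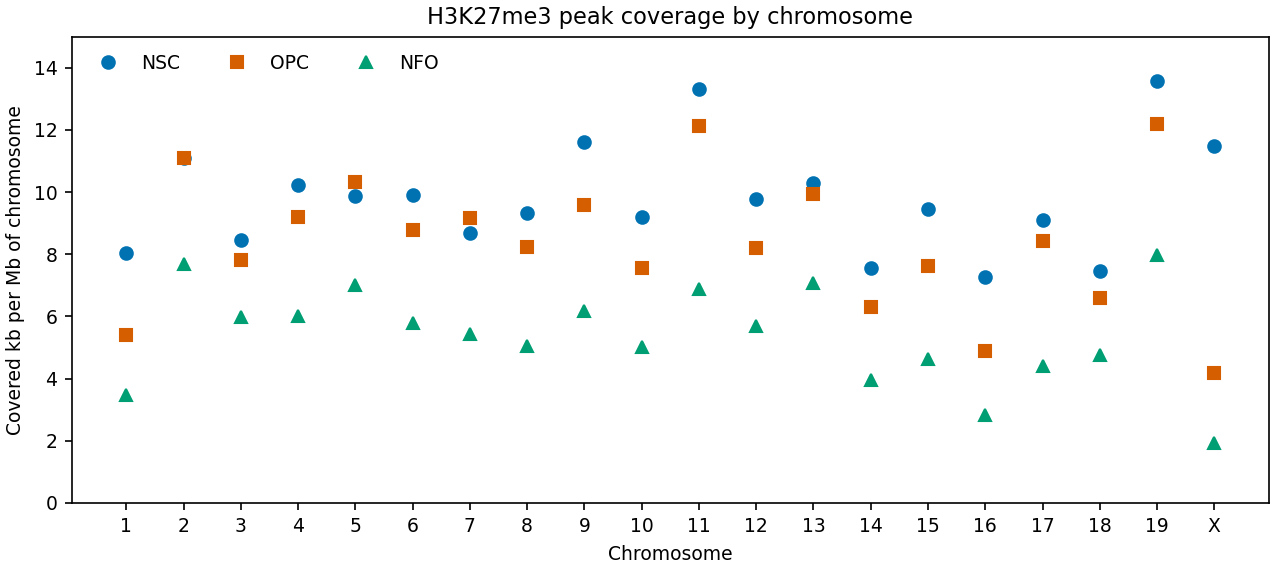
H3K27me3 peak coverage (vertical axis, kb covered per Mb of chromosome) on the 19 autosomes and X (horizontal axis) in NSCs (circles), OPCs (squares) and NFOs (triangles), 1 library each. On X the NSC value is 11.5 kb per Mb and the OPC and NFO values, 4.17 and 1.92, lie below those of all autosomes of the same stage.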

How the data were processed

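ChIP-Seq peak lists of H3K27me3 in NSCs, OPCs and NFOs, with those of H3K4me3 and OLIG2 as further readouts, were used (8 lists, 1 library each). Groups follow the cell type and target named in each title. The authors used Bowtie2 to map reads to mm10 (GRCm38), kept those that mapped uniquely and called broad histone peaks with MACS2, leaving out blacklisted regions, and deposited 1 list per library. The deposited lists give for each peak a fold enrichment, a ratio made by the authors' peak caller, and the −log10 of the p-value and of the FDR (q-value). OLIG2 peaks were called with SPP per the study's methods. No read depth is given, so values were not scaled by depth. All listed H3K27me3 peaks were used. They reach an FDR of 0.0938 in NSCs and 0.0995 in OPCs, and 22502 NSC and 19265 OPC peaks pass the filter of the study's methods (FDR below 0.05, fold enrichment above 3.5). The input DNA and the RIP-Seq lists were not used here.

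Peaks were shared if they overlapped by at least 1 bp. Genes were the 21938 protein-coding and 13374 lncRNA genes of GENCODE M21, with the 5′ end of the gene record as TSS. Covered bases within 2 kb of the TSS were counted, and a difference of at least 2000 bp called a gene gained or lost. All 447 entries of the 19 gene lists matched the annotation by symbol. Composition was read from GRCm38.p6 and promoter sequences from RefSeq, leaving out stretches that overlap an annotated exon. Named were the 12 protein-coding genes with the largest gain and the 12 with the largest loss (ties by peak width), the 8 genes covered in full in both stages with the widest NSC peaks, each list member gained or lost, and Sox10, Zfp488, Nkx2-2, Olig2, Yy1 and Gpr17. Other genes were chosen after their values were seen. The members, lists and rules were chosen with earlier results of these data known. Alternatives were the stated filter, a fold enrichment above 5, peaks of at least 1 kb, peaks joined within 3 kb, autosomes, 50% overlap, a 1 kb window, the TSS of any transcript, protein-coding genes, differences of 1000 or 3000 bp, and no base in the other stage. Peaks of at least 300 bp were added after seeing the data. Interval arithmetic was checked on simulated peaks. Scripts ran in Python 3.11.15 with pysam 0.24.0, SciPy 1.17.1, pandas 2.3.3, Matplotlib 3.10.9 and NumPy 2.4.6. Some results on single genes are not reported here.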

Additional observations from a re-analysis of the deposited data

How the results depend on the processing

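The share of NSC peaks shared with OPCs, 20.9% with all listed peaks, was 18.4% with peaks past the filter of the study's methods, 25.9% at a fold enrichment above 5, 14.6% with peaks of at least 1 kb, 20.0% with peaks joined within 3 kb, 17.1% with peaks of at least 300 bp (added after seeing the data) and 11.7% where 50% of the peak had to be covered. The share of OPC peaks shared with NSCs, 27.7%, was 23.7%, 12.8%, 28.6%, 30.3%, 29.6% and 20.9% in the same order, and 27.04% on autosomes alone. At a fold enrichment above 5, 1011 of 3905 NSC peaks and 1129 of 8846 OPC peaks were shared. The order of the 2 shares was thus the reverse of that with all 36069 NSC and 29417 OPC peaks. The cut removed a larger part of the NSC list, so the 2 shares rest on lists of unlike size.

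The 216 gained and 55 lost genes became 701 and 129 with peaks joined, 755 and 453 at a difference of 1000 bp, 68 and 9 at 3000 bp, and 142 and 21 with no base in the other stage. Protein-coding genes alone gave 137 gained. Lost genes were 30 at a fold enrichment above 5 and 193 in the 1 kb window. Under the peak filters, the joining of peaks and the 1 kb window, no gained gene was called lost, or the reverse. The other settings keep the same covered bases at the TSS of the gene, so such a switch could not occur there. The filter of the study's methods kept 178 of the 216 gained and 38 of the 55 lost genes, and a fold enrichment above 5 kept 83 and 13. Of the 34 gained and 16 lost genes named by rule, 15 and 5 were still called at a fold enrichment above 5, and 32 and 6 with peaks joined.

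The share of gained genes marked in NFOs, 96.8%, was 66.1% at a fold enrichment above 5, 80.2% with peaks of at least 1 kb, 82.2% with peaks joined, 83.2% in the 1 kb window, 86.2% at 1000 bp and 100% at 3000 bp. That of lost genes, 54.5%, was 39.0% with peaks of at least 1 kb, 23.3% with peaks joined, 35.5% at 1000 bp and 14.3% with no base in OPCs. The cause of these differences was not tested. Fewer genes were tested with protein-coding genes alone. No paired analysis was possible because each stage has 1 library.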

Other observations

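Some of the widest domains lay in regions without genes or of many copies. A domain of 87.4 kb in NSCs and 87.7 kb in OPCs on chromosome 8 (123537901 to 123625282 in NSCs) held no annotated TSS of a protein-coding gene or lncRNA and was covered to 92.7% in NFOs. The unplaced scaffold JH584304 held an NSC domain of 46.6 kb. Among the lost genes were Gm10800 and Gm10801, neighbors at which the NSC list had a peak of 5181 bp with a fold enrichment of 1.48, the lowest among the 5 widest peaks of NSCs alone. Such sites share sequence with other copies, and their values are uncertain. The gained genes Gm42418 and AY036118, neighbors on chromosome 17, lay in one OPC peak of 6053 bp with a fold enrichment of 3.27. At Gm42418 H3K4me3 also covered 3926 bp in NSCs and 4001 bp in OPCs and NFOs, and this gain is uncertain as well.

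The widest NSC peaks without any OPC counterpart were 8120 bp on chromosome X (126768677 to 126776796), 6808 bp on chromosome 7 and 6404 bp on chromosome 4, none with a TSS within 2 kb and none overlapped in NFOs. The widest peaks of OPCs alone were each overlapped in NFOs. One of 14647 bp and one of 13025 bp lay on chromosome 2 (109957473 to 109972119 and 110195875 to 110208899), the second at the lncRNA Gm13936.

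Fold enrichment told shared from one-stage peaks in a different way in each list. In NSCs, 20.0% of peaks up to a fold enrichment of 3.5 were shared, and 73.5% (66.2 to 80.0) of the 170 peaks between 7.5 and 10. In OPCs these values were 17.7% and 46.5% (44.2 to 48.8) of 1861 peaks. OPC peaks above 10 numbered 776 with a median width of 272 bp, and NSC peaks above 10 numbered 16.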
